A study of Mus musculus with 4 samples.

Results

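A set of 10 genes of bile acid synthesis, conjugation, transport and control, out of 32285 genes counted, were followed in single liver nuclei. They were chosen by symbol, as Cyp7a1, Cyp8b1, Cyp27a1, Cyp7b1, Baat, Slc27a5, Abcb11, Slc10a1, Nr1h4 and Nr0b2, and all 10 passed the filter on low counts in every comparison of hepatocytes. All mice were male, wild type and of the inbred laboratory strain C57BL6/J, and their livers were frozen before nuclei were isolated. The young group was 2 months old and the aged group 30 months old, with 2 libraries each, and neither carried a treatment or an engineered allele. The labels number the libraries as replicates without naming an animal for each, so a p-value here covers the spread between libraries, which may be technical.

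Bile acids are made from cholesterol in hepatocytes. The classic route starts with Cyp7a1, and Cyp8b1 sets the share of cholic acid, while the alternative route runs through Cyp27a1 and Cyp7b1. Slc27a5 and Baat join bile acids to coenzyme A and then to taurine or glycine, Abcb11 exports them into bile and Slc10a1 takes them back up from blood. The nuclear receptor FXR, encoded by Nr1h4, senses bile acids and induces Nr0b2 (SHP), a repressor of their synthesis. Hepatocytes near the central vein (pericentral) and near the portal vein (periportal) are known to divide metabolic work between them.

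The deposited matrices held 2666 to 14718 barcodes and 11799751 to 54777101 UMIs per library, a UMI being a tag for one captured RNA molecule. After filters, 1356 and 8843 young and 5469 and 7187 aged nuclei were called hepatocyte-like. This was a class by exclusion, of clusters that stood out for the markers of no other lineage. Their median depth was 3581, 929, 2143 and 3463 UMIs. Each pair of libraries shared 8 to 67 barcodes. Hepatocyte clusters hardly mixed between libraries. Young replicate 1 filled mostly cluster 0, led by Igfbp1 and G6pc. Young replicate 2 filled clusters 8, 9 and 17, the first of them led by Thrsp and Fasn. Aged replicate 1 held nearly all of clusters 15, 18 and 19, and aged replicate 2 nearly all of 3, 10, 14 and 16. Mitochondrial transcripts led clusters 16 and 18. The mean log2 fold of 10 hepatocyte markers over the rest of the nuclei of all libraries was -0.73 in cluster 0, -0.72 to 0.64 in those of aged replicate 2 and 0.16 to 1.16 in those of aged replicate 1. It was -0.29 in the endothelial-like and -1.19 in the stellate/fibroblast-like cluster, so these markers do not set the class apart across libraries. Within each library, their summed level was higher in the hepatocyte-like class than in each other named lineage, which reached 37.2% to 98.6% of it. Below, 4 values in a row always belong to young replicates 1 and 2 and then aged replicates 1 and 2. Levels in hepatocyte-like nuclei are in CPM, the usual counts per unit of library size, after TMM scaling for library composition, and are compared within a gene only.

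Cyp8b1, the sterol 12-alpha-hydroxylase, and Cyp27a1, the mitochondrial sterol 27-hydroxylase, are the synthesis genes for which a promoter sequence was at hand. They are shown because the first had the largest difference between the age groups among the 10 genes and the second differed along the lobule. Both are the 250 bases before the RefSeq start in build GRCm38.p6, read 5′ to 3′ on the gene's strand. Cyp8b1 lies on the minus strand (chr9:121916306-121916555) and Cyp27a1 on the plus strand (chr1:74713285-74713534).
Cyp8b1: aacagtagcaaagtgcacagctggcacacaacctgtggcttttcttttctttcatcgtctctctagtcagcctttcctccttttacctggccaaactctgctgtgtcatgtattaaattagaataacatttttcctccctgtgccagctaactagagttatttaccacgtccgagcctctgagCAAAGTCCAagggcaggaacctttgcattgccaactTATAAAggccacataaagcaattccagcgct
Cyp27a1: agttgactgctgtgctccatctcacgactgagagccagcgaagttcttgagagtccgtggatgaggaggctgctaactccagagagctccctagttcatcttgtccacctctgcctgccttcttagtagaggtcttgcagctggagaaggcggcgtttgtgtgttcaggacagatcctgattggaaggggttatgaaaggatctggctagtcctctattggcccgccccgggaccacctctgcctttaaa
Capitals mark matches to 4 motifs searched on both strands: CAAAGTCCA (HNF4A), TATAAA (core promoter element), CAAGGTCA (LRH-1) and the FXR inverted repeat with a spacer of 1 base. The Cyp8b1 window held CAAAGTCCA starting 67 bases and TATAAA starting 31 bases before the start, without overlap. Cyp27a1 held none of the 4. Of 32851 RefSeq windows of this length, 0.384% held CAAAGTCCA, 12.4% TATAAA, 1.33% CAAGGTCA and 0.0335% the FXR repeat. A match is a description of letters and not a binding site. Windows were found for 6 of the 10 genes, not for Cyp7a1, Cyp7b1, Baat or Slc27a5.

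In the GENCODE vM21 annotation of mm10, Cyp8b1 (ENSMUSG00000050445, chr9:121914356-121916305) is a gene of 1 exon. Cyp7a1 (ENSMUSG00000028240, chr4:6265612-6275633) has 6 exons and Cyp27a1 (ENSMUSG00000026170, chr1:74713574-74737892) has 9. Cyp7b1 (ENSMUSG00000039519, chr3:18071950-18243338) overlaps the small nuclear RNA gene Gm23686 on its own strand. Abcb11 (ENSMUSG00000027048, chr2:69238282-69342616) overlaps the antisense gene Gm13613 and the pseudogene Gm13614, and whether counting used strand is not given in the sources used here. The other members overlapped no annotated gene. They are Baat (ENSMUSG00000039653, chr4:49489422-49506557), Slc27a5 (ENSMUSG00000030382, chr7:12988346-12998192), Slc10a1 (ENSMUSG00000021135, chr12:80953183-80968705), Nr1h4 (ENSMUSG00000047638, chr10:89454234-89533585) and Nr0b2 (ENSMUSG00000037583, chr4:133553376-133556536).

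The first question was where along the lobule the genes are expressed. Of the 10, Cyp7a1 and Cyp27a1 were higher in pericentral hepatocyte-like nuclei, and none passed the test in the periportal direction. The nuclei of each library were ordered by landmark genes of the 2 zones, none of them a member, and the highest and lowest scoring 33% or so were summed as the pericentral and periportal parts. Of 13753 genes tested with the library as a block, 21.4% passed an adjusted p of 0.05 (edgeR's quasi-likelihood test, Benjamini-Hochberg), 10.8% in the pericentral and 10.7% in the periportal direction. The 2 of 10 members called are a share close to this background. The score is a range, not a cell type.

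Cyp7a1, the rate-limiting enzyme of the classic route, lay at 47.2, 143, 172 and 24.7 CPM in the periportal and at 278, 477, 507 and 239 CPM in the pericentral part. The pericentral level was 5.88, 3.35, 2.95 and 9.69 times the periportal one, so that all 4 libraries agreed in direction while the size of the ratio varied within both age groups. The fitted log2 difference was 2.23 (SE 0.24, edgeR adjusted p = 9.97e-05). Divided into 5 layers of the score, Cyp7a1 rose at every step in all 4 libraries, and the outermost pericentral layer stood at 14.0, 4.66, 3.78 and 13.1 times the outermost periportal one.

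Cyp27a1 lay at 209, 294, 239 and 131 CPM periportally and at 529, 624, 645 and 522 CPM pericentrally. These are ratios of 2.53, 2.13, 2.69 and 3.98, with no overlap between the parts over the 4 libraries. The log2 difference was 1.47 (SE 0.13, edgeR adjusted p = 2.62e-05). Cyp27a1 also rose at every step over the 5 layers in all libraries, by 3.01, 2.41, 3.18 and 4.34 times from end to end. Both calls held in every alternative, as given in the closing section.

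**Figure D1:**
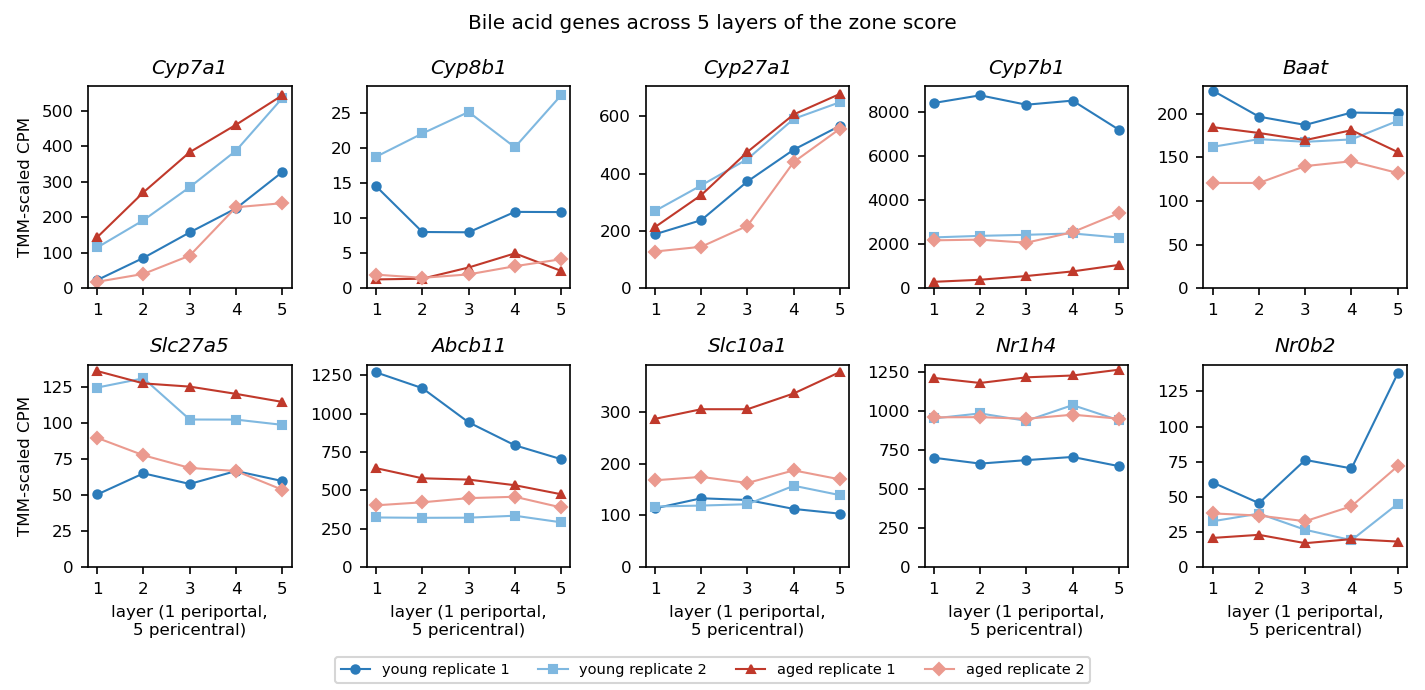
TMM-scaled CPM (vertical axis, from 0) of each gene in 5 layers of the zone score from periportal (1) to pericentral (5), 1 line per library. Cyp7a1 and Cyp27a1 climb in all 4 libraries, while Nr1h4 is nearly flat in each, with ends within 0.923 to 1.04 times of one another.

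The 5 layers show different shapes for the rest. Cyp7b1, the oxysterol 7-alpha-hydroxylase of the alternative route, was nearly flat in the young libraries (pericentral over periportal 0.906 and 1.04) and higher pericentrally in the aged ones (3.07 and 1.38). Its overall log2 difference of 0.48 did not pass (SE 0.23, edgeR adjusted p = 0.178). Cyp8b1 had ratios of 0.996, 1.19, 2.73 and 2.19 (log2 difference 0.55, SE 0.24, edgeR adjusted p = 0.140), resting on few UMIs. Among the conjugating enzymes, the bile acid CoA ligase Slc27a5 was lower pericentrally in 3 of 4 libraries (ratios 1.21, 0.804, 0.855 and 0.680, edgeR adjusted p = 0.132). Among the alternatives it passed only without young replicate 1 (log2 difference -0.36, edgeR adjusted p = 0.027), where 18.3% of genes passed. Baat, the amino acid N-acyltransferase, had ratios of 0.926, 1.13, 0.896 and 1.14, 2 on each side of 1.

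The exporter Abcb11 lay at 1237 CPM in the periportal and 753 CPM in the pericentral part of young replicate 1, and at 314 and 311, 616 and 480, and 413 and 420 CPM in the others. The difference did not pass (log2 difference -0.26, SE 0.12, edgeR adjusted p = 0.143). Slc10a1, the sodium-dependent uptake carrier NTCP, had a log2 difference of 0.12 (SE 0.10, edgeR adjusted p = 0.459). Nr1h4 was the most even of the 10, with ratios of 0.995, 1.01, 1.05 and 1.00 (log2 difference 0.02, SE 0.06, edgeR adjusted p = 0.894). Nr0b2 split the libraries, at 1.91, 0.944, 0.816 and 1.56 (edgeR adjusted p = 0.173), and the order did not follow age.

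RNA depth and quality moved only in part with the zones. The periportal parts had medians of 3268, 945, 2878 and 3767 UMIs per nucleus and the pericentral parts 3828, 969, 2399 and 3992. Median mitochondrial shares were 0.364%, 0.660%, 0.665% and 0.370% periportally and 0.222%, 0.498%, 0.620% and 0.254% pericentrally, lower in all 4 libraries. Both calls held among nuclei of at least 1000 UMIs (log2 difference 2.30 for Cyp7a1 and 1.52 for Cyp27a1) and of at most 1% mitochondrial UMIs (2.21 and 1.42).

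Thinning every nucleus to 500 UMIs gave the same direction for Cyp7a1. A UMI was found in 13.3% (95% exact binomial interval 10.3 to 16.8), 22.3% (20.8 to 23.8), 17.0% (15.3 to 18.8) and 9.60% (8.45 to 10.9) of pericentral nuclei. In periportal nuclei it was found in 1.77% (0.767 to 3.46), 6.38% (5.52 to 7.32), 5.76% (4.74 to 6.93) and 1.21% (0.812 to 1.73). Macrophage-like nuclei, which should lack the gene, showed 4.65%, 7.21%, 3.71% and 2.39% at median depths of 2937, 897, 1713 and 1177 UMIs before thinning. The macrophage-like value of young replicate 1 is from 2 of 43 nuclei (0.568 to 15.8). Stellate/fibroblast-like nuclei showed 1.57%, 3.94%, 0.316% and 1.00% at median depths of 854, 623, 1000 and 975.5 UMIs. Endothelial-like nuclei showed 0%, 12.0%, 8.21% and 3.83% at median depths of 1490, 1036, 1172 and 1122 UMIs. The periportal share was below the macrophage-like share in 3 of 4 libraries and above the stellate/fibroblast-like share in all 4, so that it cannot be told apart from background. The pericentral share was above those of all these other lineages in all 4. These intervals cover counting error only. For Cyp27a1 the pericentral shares were 23.89%, 27.62%, 23.75% and 21.17% and the periportal shares 9.292%, 14.66%, 10.53% and 6.472%. Macrophage-like nuclei showed 13.95%, 17.79%, 10.93% and 9.145%, endothelial-like nuclei 9.756%, 16.28%, 6.763% and 9.265%, and stellate/fibroblast-like nuclei 6.283%, 9.27%, 6.013% and 7.75%. Its periportal share therefore cannot be told apart from background either, while its pericentral share was above these lineages in all 4 libraries.

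Other genes of the pathway were followed from a list of 41, of which 37 were testable for zone. Of these, 15 were higher pericentrally and 4 periportally, beside 10.8% and 10.7% of all genes tested, with a median log2 difference of 0.23 beside -0.01 over all genes tested. The steepest was Abcc4, a basolateral exporter, at 3.89, 4.03, 6.41 and 2.90 CPM periportally and 111, 29.7, 126 and 140 CPM pericentrally (log2 difference 4.69). Akr1c6 (2.35), the xenobiotic receptor CAR gene Nr1i3 (1.91), the organic anion uptake carrier Slco1b2 (1.73) and Hsd3b7 (1.09), which acts after the 7-alpha-hydroxylation, followed. The canalicular transporters Abcb4 (0.87), which moves phospholipid, Abcc2 (0.71) and Abcg8 (0.36) also rose pericentrally. So did Slco1a1 (0.67), Rxra (0.67), the FXR partner, Abcc3 (0.54), Hsd17b4 (0.50), Nr5a2 (0.33), Mafg (0.31) and Akr1c14 (0.28).

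The 4 that were higher periportally were Cyp39a1, the 24-hydroxycholesterol 7-alpha-hydroxylase, Ppargc1a, Fgfr4 and Cyp2c70. Cyp39a1 lay at 68.3, 80.0, 114 and 147 CPM periportally against 12.5, 16.8, 15.7 and 23.1 CPM pericentrally (log2 difference -2.60), the reverse of Cyp7a1 in every library. The coactivator Ppargc1a differed by -1.18. Fgfr4, the receptor for the gut hormone that restrains Cyp7a1, differed by -0.34, and Cyp2c70, which makes the muricholic acids of mice, by -0.25. Of the 37, 21 were higher pericentrally in 4 of 4 libraries and 7 periportally, beside 17.6% and 19.4% of all genes tested.

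The next question was whether the genes differ with age in hepatocyte-like nuclei. None of the 10 passed edgeR's test, in which 5 of 15391 genes (0.0325%) were called and 2856 had an unadjusted p under 0.05. Among the latter were 2 members, Cyp8b1 and Slc10a1. DESeq2 called 821 genes (5.33%), with Cyp8b1 the one member among them. The 2 aged libraries lay below both young ones for Cyp8b1 and Baat and above both for Slc10a1 and Nr1h4, and overlapped with them for the other 6. Over all genes tested 25.7% lay below and 25.8% above, 51.5% in all, so 4 of 10 is no more than the background.

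**Figure D2:**
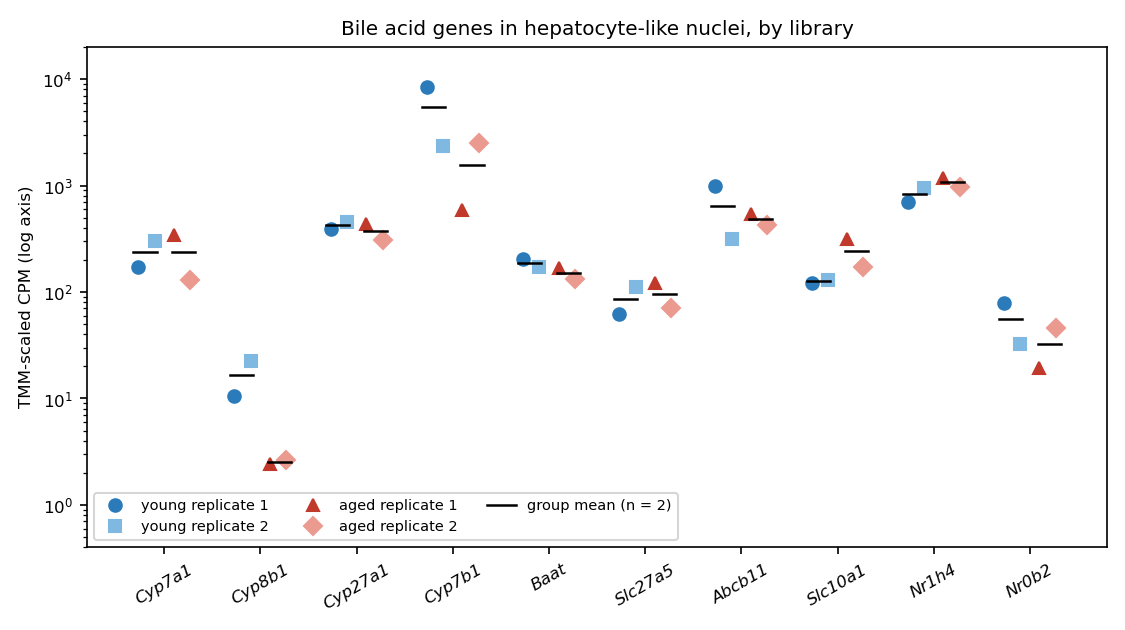
TMM-scaled CPM (log axis) of each gene in hepatocyte-like nuclei, 1 point per library, with a bar at the mean of each group of 2. Cyp8b1 is the gene with the widest gap between the groups, and Cyp7b1 spreads over a 14.3-fold range without separating them.

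Cyp8b1 stood at 10.5, 22.5, 2.42 and 2.62 CPM, from 65, 248, 40 and 85 UMIs. Both aged libraries were low and close to one another, and the young ones differed 2.14-fold. The mean was 16.5 ± 8.49 against 2.52 ± 0.14 CPM (SD, n = 2), and the log2 difference -2.71 (SE 0.49, edgeR adjusted p = 0.123). DESeq2 gave an adjusted p of 1.89e-04 for a log2 difference of -2.69. Leaving out any 1 library kept the difference between -3.14 and -2.02 and brought edgeR's adjusted p to between 0.0029 and 0.038, in fits where the lone library is assumed to vary like the others. In those fits 1.49% (without young replicate 1), 6.99% (young replicate 2), 1.38% (aged replicate 1) and 6.33% (aged replicate 2) of all genes passed. Without the filter on low counts 5.92% of genes passed, Cyp8b1 and Cyp7b1 among them. After thinning to 500 UMIs, 0.516% (0.208 to 1.06), 1.29% (1.07 to 1.55), 0.238% (0.127 to 0.406) and 0.111% (0.0481 to 0.219) of nuclei held a UMI of Cyp8b1. Of the lineages that should lack the gene, endothelial-like nuclei showed 0%, 1.39%, 0.242% and 0.213%. Stellate/fibroblast-like nuclei showed 0.524%, 1.78%, 0% and 0.167%. Where not 0%, these shares were above the hepatocyte share of the same library. Macrophage-like nuclei showed 0%, 1.13%, 0% and 0%, below the hepatocyte share in each library. These background shares rest on 0 to 12 nuclei with a UMI per library. The hepatocyte shares therefore cannot be told apart from background. The exact two-sided permutation p of the hepatocyte shares was 0.333, the smallest that 2 against 2 can give.

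Cyp7a1 did not separate the ages, at 172 and 301 CPM in young and 342 and 130 CPM in aged libraries. Its group means were 237 ± 91.0 and 236 ± 150 CPM (SD, n = 2), with a log2 difference of -0.01 (SE 0.52, edgeR adjusted p = 0.997). The order, high in young replicate 2 and aged replicate 1, was shared by Slc27a5 at 61.8, 111, 121 and 71.2 CPM and, over a smaller range, by Cyp27a1 at 387, 459, 437 and 309 CPM. Neither of these passed (edgeR adjusted p = 0.873 and 0.832). Cyp7a1 is known to cycle over the day, and collection times are not given in the labels. The summed level of 13 clock genes was 942, 1439, 1101 and 1101 CPM, but the sum hides larger differences of single genes. Dbp lay at 28.4, 166, 76.1 and 114 CPM and Ciart at 15.2, 99.8, 12.6 and 19.1 CPM. Arntl lay at 14.4, 5.63, 5.27 and 3.48 CPM, while Nr1d2 varied less, at 283, 196, 220 and 234 CPM. The sum therefore does not show whether the clock state was alike. The part of these genes in the differences of Cyp7a1, Slc27a5 and Cyp27a1 was not tested.

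Cyp7b1 varied most, at 8484 and 2357 CPM in young and 593 and 2522 CPM in aged libraries. The 2 libraries of each age differed 3.60-fold and 4.25-fold, with aged replicate 2 above young replicate 2, and the log2 difference of -1.80 did not pass (SE 0.93, edgeR adjusted p = 0.348). It passed without young replicate 2 (-2.41, edgeR adjusted p = 0.023), as 6.99% of all genes did. Without young replicate 1, aged replicate 1 or aged replicate 2 the log2 difference was -0.58, -1.09 or -3.16 and did not pass (edgeR adjusted p = 0.672, 0.965 and 0.418). Cyp7b1 is known to be higher in male than in female mouse liver. For all 11 genes of a male-biased list, which holds Slco1a1 of the pathway genes too, both aged levels were below both young ones, beside 25.7% of all genes tested, with sums of 6734, 8274, 921 and 2884 CPM. Of 12 female-biased genes listed, the 6 tested summed to 13.9, 7.53, 1273 and 6.13 CPM. Most of the sum in aged replicate 1 was Cyp2b9, at 871 CPM, though all 6 were highest there. Aged replicate 1, with the lowest Cyp7b1, thus also had the highest female-biased level. None of these genes passed the test, and their relation to Cyp7b1 was not tested.

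Slc10a1 stood at 122 and 129 CPM in young and 312 and 173 CPM in aged libraries. The aged mean was 1.93-fold higher, at 242 ± 97.9 against 126 ± 5.13 CPM (SD, n = 2), but the spread of the aged libraries was wide and the difference did not pass (log2 difference 0.95, SE 0.38, edgeR adjusted p = 0.249). Nr1h4 stood at 697, 956, 1179 and 960 CPM, where young replicate 2 and aged replicate 2 were practically level (edgeR adjusted p = 0.696). Baat stood at 206, 171, 168 and 132 CPM, with the young replicate 2 and aged replicate 1 values nearly touching (edgeR adjusted p = 0.631).

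Abcb11 and Nr0b2 were both highest in young replicate 1. Abcb11 stood at 981, 315, 543 and 424 CPM and Nr0b2, a target of FXR, at 79.4, 32.1, 19.2 and 45.5 CPM. Their log2 differences of -0.42 and -0.78 did not pass (edgeR adjusted p = 0.734 and 0.483). Without young replicate 1 that of Abcb11 turned to 0.63 and that of Nr0b2 to 0.03. The level of Nr1h4 was lowest in that same library.

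None of the other pathway genes passed for age either (38 tested, 23 above and 15 below 0, median log2 difference 0.16 beside -0.02 over all genes). The 3 with the smallest p were Hsd3b7, Abcb1a and Slco2b1. Hsd3b7, the 3-beta-hydroxysteroid dehydrogenase that follows the 7-alpha-hydroxylases, stood at 523 and 221 CPM in young and 84.9 and 71.3 CPM in aged libraries (log2 difference -2.25, SE 0.47, edgeR adjusted p = 0.141). Abcb1a, a drug exporter, stood at 3.55, 8.08, 34.9 and 13.0 CPM (edgeR adjusted p = 0.184), and the uptake carrier Slco2b1 at 47.8, 70.9, 142 and 108 CPM (edgeR adjusted p = 0.196). In each of these the groups did not overlap, as for 51.5% of all genes tested. This adds no support, since the 3 were picked by p in the same libraries.

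**Figure D3:**
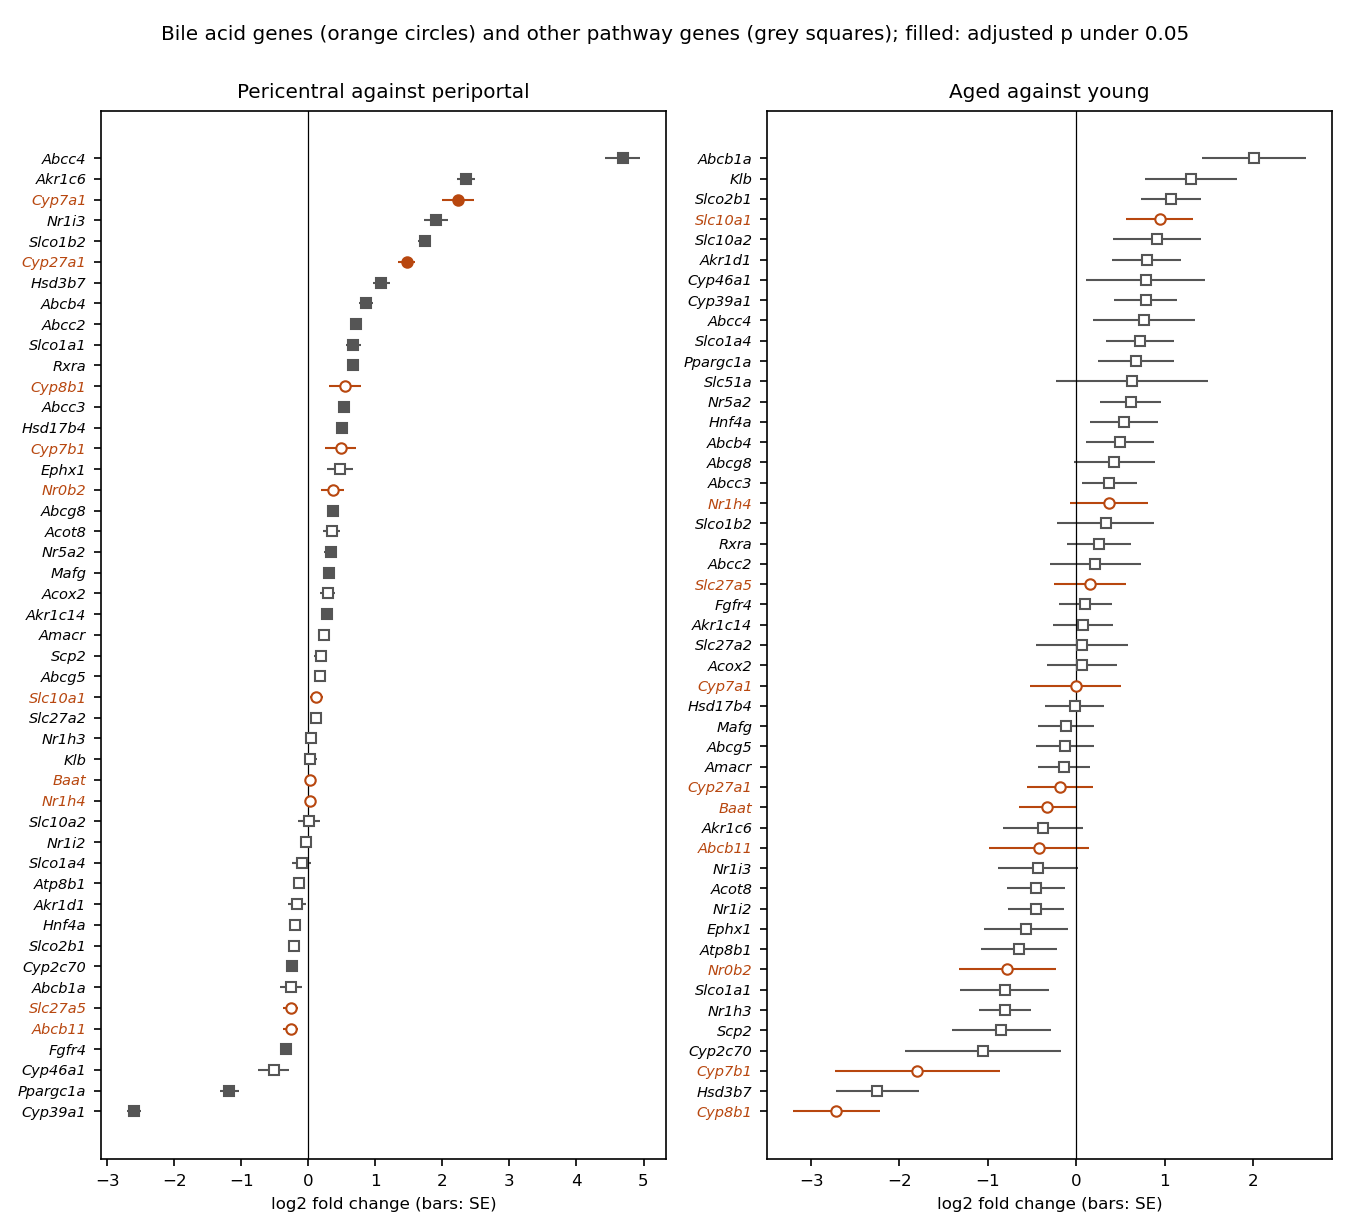
Log2 fold changes with standard errors for the 10 members (orange circles) and the other pathway genes tested (grey squares), pericentral against periportal on the left and aged against young on the right. Filled symbols passed an adjusted p of 0.05, which 2 members and 19 other genes did for zone and none did for age.

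A zone by age term asks whether the lobular difference itself changes with age. No member passed, beside 10 of 13753 genes (0.0727%) that did, with 818 genes and 3 members at an unadjusted p under 0.05; DESeq2 called 16 genes and no member. The 3 were Cyp7b1 (log2 term 1.08, SE 0.29, edgeR adjusted p = 0.455), Cyp8b1 (1.04, edgeR adjusted p = 0.788) and Cyp27a1 (0.50, edgeR adjusted p = 0.788), each with a larger fitted pericentral excess in the aged libraries. The term of Cyp7b1 passed without aged replicate 2 (1.66, edgeR adjusted p = 5.17e-05, with 0.497% of genes called) and without the filter on low counts (1.04, with 0.794% called), and was 0.49 without aged replicate 1 (edgeR adjusted p = 0.165). Those of Cyp7a1 (1.22, edgeR adjusted p = 7.75e-05) and Cyp27a1 (0.77, edgeR adjusted p = 0.0080) passed without aged replicate 1, where 1.37% of genes were called, while without aged replicate 2 they were -0.48 and 0.23 (edgeR adjusted p = 0.746 and 0.941). Of the other pathway genes none passed, and those with the smallest p were Slco1a4 (-0.77, edgeR adjusted p = 0.202), Hsd3b7 (0.58, edgeR adjusted p = 0.523) and Nr5a2 (-0.41, edgeR adjusted p = 0.710).

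Nr1h4 was the one member with a higher level in another lineage than in hepatocytes in all 4 libraries. In stellate/fibroblast-like nuclei (191, 507, 316 and 1200), named for markers of the retinoid-storing and matrix-producing cells, it lay at 1544, 1432, 2215 and 2059 unscaled CPM, which are scaled to the plain total without TMM. The hepatocyte-like nuclei of the same libraries lay at 646, 1053, 1145 and 961 unscaled CPM. This is 1.36 to 2.39 times the hepatocyte level, and 1.31 to 2.24 times among nuclei of at least 1000 UMIs. The share of nuclei with a UMI of Nr1h4 after thinning to 500 UMIs was 54.5% (47.1 to 61.7), 49.7% (45.3 to 54.2), 63.9% (58.4 to 69.2) and 59.4% (56.6 to 62.2) in stellate/fibroblast-like nuclei. In hepatocyte-like nuclei it was 27.4% (25.1 to 29.9), 38.6% (37.6 to 39.6), 39.1% (37.8 to 40.4) and 36.4% (35.3 to 37.6), and in macrophage-like nuclei 16.3%, 32.9%, 18.1% and 20.5%. The intervals of the first 2 lineages did not overlap in any library. They cover the counting error of nuclei only, and the lineages were described without a test. The 2 aged stellate/fibroblast-like values lay above the 2 young ones, and no test of age was made there. In hepatocyte-like nuclei 25.8% of all genes tested lay above in this way. The share among stellate/fibroblast-like nuclei was not computed, so this order is not read as a difference with age.

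The other members read differently across lineages, and hepatocyte transcripts were found in every one of them. The 10 hepatocyte markers together reached 42.2% to 74.8% of their hepatocyte level in stellate/fibroblast-like, 63.1% to 89.0% in macrophage-like and 68.1% to 98.6% in endothelial-like nuclei. For Cyp7a1 the order by mean was hepatocyte-like (238 ± 109 unscaled CPM, SD, n = 4), macrophage-like (159 ± 67.6), endothelial-like (158 ± 90.6) and stellate/fibroblast-like (35.7 ± 30.6). Macrophage-like and endothelial-like nuclei had no common order, each being higher in 2 of 4 libraries, while the steps above and below them held in 4 of 4. Cyp7b1 lay at 3390 ± 3125, 3038 ± 3232, 2924 ± 2746 and 508 ± 429 unscaled CPM in these lineages (SD, n = 4). Macrophage-like nuclei were above endothelial-like ones in 1 of 4 libraries, young replicate 1, so these neighbours had no common order. In stellate/fibroblast-like nuclei Cyp7a1 was at 2.53% to 24.0% and Cyp7b1 at 3.89% to 20.2% of the hepatocyte level, below that of the hepatocyte markers.

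Of these 4 lineages, stellate/fibroblast-like nuclei also had the lowest level of Cyp27a1, Baat, Slc27a5, Abcb11 and Nr0b2 in each library, and of Slc10a1 in 3 of 4, the exception being young replicate 2. Slc10a1 ranged there from 19.5% to 89.4% of the hepatocyte level and Cyp27a1 from 31.0% to 52.9%. In macrophage-like nuclei the medians over libraries of all 10 members lay between 65.7% (Cyp7a1) and 86.6% (Abcb11) of hepatocytes, inside the range of the hepatocyte markers. Cyp8b1, with 1, 14, 0 and 5 UMIs in stellate/fibroblast-like nuclei, could not be ordered. Its 0 counts in aged replicate 1 allow up to 8.42 unscaled CPM, above its hepatocyte level there of 2.35.

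**Figure D4:**
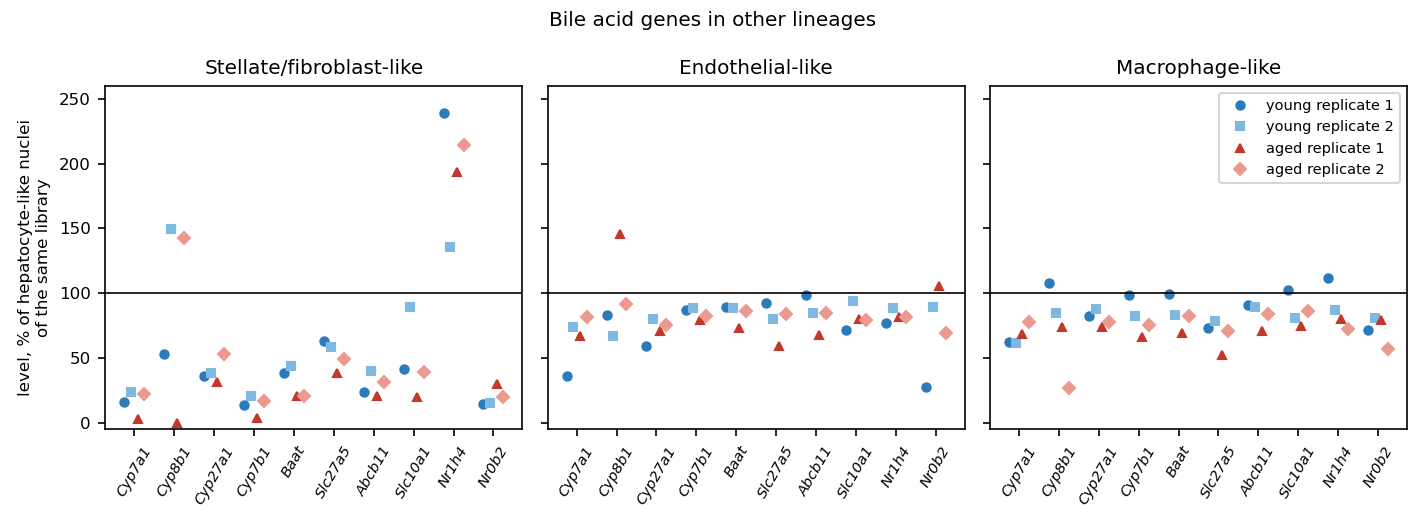
Level of each gene in 3 other lineages as a percentage of the hepatocyte-like level of the same library (line at 100%), 1 point per library. Nr1h4 stands at 136% to 239% in stellate/fibroblast-like nuclei, whereas Cyp7a1, Cyp7b1 and Nr0b2 stay at or below 30.1% there.

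Genes with the most similar pattern were sought over 20 profiles (4 libraries by 5 layers) by Pearson's r of log2(CPM + 1), as a description. About 8100 genes with a mean of at least 10 CPM were compared. The profiles share libraries, so part of each r is the difference between libraries. This part is large for Cyp7b1 and Slc10a1. Over the 5 layers Slc10a1 lay at 103 to 133 CPM in young replicate 1 and at 287 to 377 CPM in aged replicate 1. Cyp7b1 lay at 7214 to 8778 CPM and at 295 to 1063 CPM in the same libraries. For these genes a high r therefore does not show a shared order along the lobule. For Cyp7a1 the top 5 were Aldh3a2 (r = 0.96), Cyp2c38 (0.95), Nr1i3 (0.95), Cyp27a1 (0.93) and Hpgd (0.92), with 1 member and 1 other pathway gene among them. For Cyp8b1 they were Fcgrt (0.96), Ran, Stk16, Bcl7c and Rabggta (each 0.95). Cyp8b1 itself lay below the mean of 10 CPM asked of the compared genes. Its few UMIs were spread over all 20 profiles, so its list is not read as a shared pattern. For Cyp7b1 they were Prpf38b, Phf20l1 (0.98 both), Nudt7, Fyttd1 (0.97 both) and Psme4 (0.96). For Slc10a1 they were Wwc1, Steap4, Gstt2 (0.97 each), Ckap5 and St8sia3 (0.96 each).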

How the data were processed

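Nuclear RNA of 4 liver libraries was captured with 10x 3' v2 chemistry, per the labels' protocols. The authors deposited a matrix of raw UMI counts for each library, with Cell Ranger 7.1.0 and mm10 named in the submitters' processing notes; the handling of intronic reads is not given in the sources used here. Barcodes were kept with at least 500 UMIs, 300 genes and at most 5% mitochondrial UMIs, which left 1977, 13850, 7938 and 13424. Scrublet's own threshold marked 0, so the highest-scoring 0.8% per 1000 barcodes were removed. Counts scaled to 10000 (2000 variable genes, 30 principal components, 20 neighbours, no integration) were clustered with Leiden at resolution 1 (scanpy 1.11.5, igraph 0.11.9, Python 3.11.15). A cluster took another lineage's name, with the suffix "-like", from a mean marker log2 fold of at least 2 and 3 detected markers, stayed unnamed between 1 and 2, and was hepatocyte-like below 1. That rule was set after the data were seen, and these rebuilt names may differ from the study's. Unnamed nuclei numbered 195, 1101, 184 and 1396.

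Counts were summed per library and zone and tested with edgeR 4.0.16 (R 4.3.3; filterByExpr, TMM, quasi-likelihood F test) over all genes at an adjusted p of 0.05, with DESeq2 1.42.0 as an alternative. Standard errors are the log2 difference divided by the root of F. Zone tests had the library as a block and left out the landmark genes. Simulated counts were also put through the fits, and no statement here rests on their outcome. Shares used exact permutation tests after thinning to 500 UMIs, and a count of 0 allows up to 3 counts. The members, lists and tests were chosen with earlier results of these data known. All 10 members are named; of other pathway genes, those past the threshold or the 3 with the smallest p. The replicate numbers were not used to pair the samples in the main fits.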

Additional observations from a re-analysis of the deposited data

How the results depend on the processing

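Each comparison has 2 libraries per age, so 1 library can decide a value, and shares cannot pass a threshold of 0.05. The pericentral calls of Cyp7a1 and Cyp27a1 held under every alternative run. Genes called for age in hepatocyte-like nuclei numbered 5; without the filter on low counts they numbered 1482, with at most 1% mitochondrial UMIs 2, with DESeq2 821, and without 1 library at a time 212 to 1156. The differences between replicates 1 and 2 in the young and in the aged group were weakly and inversely correlated (r = -0.21 across genes). This does not settle whether the replicate numbers pair the libraries. The replicate block gave 12 calls and the crossed pairing, chosen after seeing the data, 7. Zone calls numbered 2950, and 1895 to 2605 without 1 library. Zone by age calls numbered 10, with 193 without the filter, 2 with at least 1000 UMIs, 2 with at most 1% mitochondrial UMIs, 16 with DESeq2 and 4 to 184 without 1 library. The cause of these changes was not tested.

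Without the filter, Cyp8b1 (log2 difference -2.66) and Cyp7b1 (-1.74) passed for age, as 5.92% of all genes tested did. In the zone test Cyp8b1, Cyp7b1, Nr0b2 and Abcb11 passed besides Cyp7a1 and Cyp27a1, as 14.2% of all genes did. The zone by age term of Cyp7b1 passed, as 0.794% of all genes did. For age, Cyp7a1 turned to 0.025 with RLE factors, 0.024 without the filter, 0.065 with at most 1% mitochondrial UMIs, 0.00077 with doublets kept and 0.025 with DESeq2. Baat turned to -0.027 for zone with at most 1% mitochondrial UMIs, and for zone by age to 0.0026 with at least 1000 UMIs, 0.0075 with at most 1% mitochondrial UMIs and 0.034 with zones of 50% of the nuclei. Nr1h4 turned to -0.0064 for zone by age without the filter. Unthinned shares turned for Cyp7a1 (aged minus young 2.22 percentage points), Cyp27a1 (0.0266), Baat (0.920) and Abcb11 (6.85).

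Leaving out 1 library at a time changed the sign of these log2 differences, with the ranges for age, Cyp7a1 -0.85 to 0.57, Cyp27a1 -0.44 to 0.083, Slc27a5 -0.26 to 0.66, Abcb11 -0.99 to 0.63 and Nr0b2 -1.50 to 0.028. For zone, Baat -0.027 to 0.11. For zone by age, Cyp7a1 -0.48 to 1.22, Baat -0.20 to 0.13, Abcb11 -0.18 to 0.52, Slc10a1 -0.17 to 0.38, Nr1h4 -0.024 to 0.062 and Nr0b2 -0.73 to 0.37.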

Other observations

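Cholangiocyte-like, mesothelial-like, B-like and T/NK-like nuclei had at least 20 nuclei in 3 of 4 libraries each. Nr1h4 reached 17.7% to 54.7% of its hepatocyte level in cholangiocyte-like and 4.04% to 35.0% in mesothelial-like nuclei, beside 53.4% to 79.1% and 37.2% to 84.0% for the hepatocyte markers. In T/NK-like nuclei it reached 74.1% to 88.7% and in B-like nuclei 74.0% to 88.5%, close to the marker percentages of 71.0% to 78.8% and 59.9% to 89.5%.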
